A study of Mus musculus with 9 samples.

Results

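The 10 genes described here encode the machinery of class I antigen presentation: the heavy chains H2-K1, H2-D1 and H2-T23, the light chain B2m, the peptide-loading genes Tap1, Tap2 and Tapbp, and the immunoproteasome subunits Psmb8, Psmb9 and Psmb10. They were taken by symbol from a table of 52183 genes. Each of the 10 passed the filter on low values, a mean of at least 1 FPKM (fragments counted for a gene, relative to its length and to the depth of the library), that left 11796 genes for testing. RNA came from endothelial cells that line the vessels of the mouse bone marrow, stained in the living animal with an antibody to VE-cadherin and sorted from the long bones. The 9 libraries form 3 groups of 3: control mice aged 3 months (young controls), control mice aged 18 months (aged controls), and mice aged 18 months labelled as Thbs1 knockouts. The labels name no strain, no altered part of Thbs1 and no Cre or transgene. Whether each library is a different mouse is not stated in them, and the p-values measure only the spread between these libraries, which may be technical.

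Class I molecules display short peptides from inside the cell to CD8 T cells. The proteasome cuts proteins into peptides, and in cells exposed to interferon the subunits Psmb8, Psmb9 and Psmb10 take the places of Psmb5, Psmb6 and Psmb7 in its catalytic core. The transporter made of Tap1 and Tap2 carries the peptides into the endoplasmic reticulum, tapasin (Tapbp) holds empty class I molecules at the transporter, and a heavy chain leaves for the cell surface only when joined to B2m and a peptide. Transcription of these genes is driven by the activator Nlrc5 and by interferon and NF-kB signalling, through factors such as Irf1.

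Thbs1 itself went against its label. The libraries labelled Thbs1 knockout had the highest levels, 25.6, 19.5 and 19.8 FPKM, against 4.55, 3.89 and 4.18 FPKM for the young and 0.67, 0.82 and 1.17 FPKM for the aged controls. Every direction drawn from that group below is that of libraries labelled so. Library depths were 22160000 to 30410000 fragments, of which 1162 to 159896 belonged to any 1 of the 10 genes. Of 10 endothelial markers the summed level was 1799 to 2117 FPKM, but single markers differed, and 3 of the 10 had a higher mean in aged than in young controls. The 5 markers of sinusoidal endothelium summed to 1429 to 1562 FPKM in the young controls and 1200 to 1432 FPKM in the aged controls. In the libraries labelled Thbs1 knockout they summed to 1251 to 1678 FPKM. Ptprc, the pan-leukocyte antigen CD45, was at 0.03 to 0.13 FPKM. Other cells' markers were not evenly spread: the 6 pan-leukocyte markers summed to 7.64 to 16.8 FPKM in the young controls, 13.8 to 20.6 FPKM in the aged controls, and 7.94, 18.0 and 9.76 FPKM in the libraries labelled Thbs1 knockout. The 7 B lineage and plasma cell markers, mostly the antibody light chain gene Igkc where the sum was high, summed to 4.64 to 394 FPKM, 413 to 2393 FPKM, and 3.65, 1643 and 531 FPKM in the same order. The aged controls had a higher mean than the young for 5 of the 6 and 6 of the 7 genes, and the 3 highest sums of both lists were in the first and second aged controls and the second library labelled Thbs1 knockout. These 3 libraries also had high class I levels, as did the third aged control, where the sums were 13.8 and 413 FPKM. The FPKM of all genes together differed as well. It was 348398, 328500 and 332454 in the aged controls and 333548 in the second library labelled Thbs1 knockout, against 307127 to 314382 in the remaining libraries. How this bears on the class I levels was not tested. The third aged control had the highest sum of 6 neutrophil markers, 265.1 FPKM against 5.47 to 138.4 FPKM in the other 8 libraries. The 9 monocyte and macrophage markers summed to 73.0 to 133.4 FPKM in the young controls, 100.4 to 117.6 FPKM in the aged controls and 69.98 to 97.8 FPKM in the libraries labelled Thbs1 knockout, all 3 of which lay below the aged range. The 5 stromal markers summed to 34.02 to 58.05 FPKM, 15.2 to 17.9 FPKM and 15.2 to 22.5 FPKM in the same order, and 0 of the 5 had a higher mean in aged than in young controls. The 5 erythroid markers summed to 89.5 to 94.7 FPKM in the young controls and 155.4, 43.2 and 99.98 FPKM in the aged controls. In the libraries labelled Thbs1 knockout they summed to 35.3, 145.0 and 54.6 FPKM. A higher mean in aged than in young controls was seen for 4 of the 5. The 6 T and NK cell markers summed to 0.21 to 1.83 FPKM, with Cd8a at 0 in all 9 libraries. The part of such cells in the class I levels was not tested, and in bulk samples a change in cell number and a change in RNA per cell cannot be told apart.

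B2m was the second most abundant gene of the 11796 tested by mean FPKM, with 6009.6, 4875 and 5431 FPKM in the young controls, 8349, 6198 and 4347 FPKM in the aged controls, and 4191, 6114 and 4209 FPKM in the libraries labelled Thbs1 knockout. The light chain was spread most widely among the aged controls, whose lowest library lay below all 3 young ones. H2-D1, a classical heavy chain ranked 16 by mean level, had 1188, 1062 and 1219.9 FPKM in the young controls, 1428, 1406 and 1880.4 FPKM in the aged controls, and 1019.7, 1438 and 1061 FPKM in the libraries labelled Thbs1 knockout. Each aged library was above each young library, and so was 1 of the 3 labelled Thbs1 knockout. H2-K1, the other classical heavy chain, ranked 41 and had 695, 565 and 686 FPKM, then 835, 787 and 915 FPKM, then 589, 868 and 606 FPKM in the same order of groups. H2-T23, which encodes the nonclassical Qa-1 heavy chain read by NK and regulatory T cell receptors, was lower, with 65.6, 58.4 and 65.1 FPKM in the young controls, 98.1, 83.9 and 91.9 FPKM in the aged controls, and 45.3, 93.8 and 67.2 FPKM in the libraries labelled Thbs1 knockout. All 3 heavy chains were thus higher in each aged control than in each young control, and in all 3 the second library labelled Thbs1 knockout lay within the aged range while the first and the third lay below it.

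The loading genes were less abundant and less alike. Tap1, the first chain of the peptide transporter, had 22.95, 14.9 and 18.4 FPKM in the young controls, 15.5, 17.5 and 22.2 FPKM in the aged controls, and 17.5, 24.7 and 18.8 FPKM in the libraries labelled Thbs1 knockout, and the 3 groups overlapped throughout. Its partner Tap2 had 24.4, 18.4 and 20.9 FPKM, then 23.7, 29.2 and 39.7 FPKM, then 24.3, 32.0 and 27.2 FPKM, so that the aged group ran from within the young range to well above it. Tapbp had 183, 174 and 181 FPKM, then 169.7, 186 and 235 FPKM, then 172, 193 and 173 FPKM, and here 1 aged library stood apart from the other 8.

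The immunoproteasome subunits resembled the heavy chains in which groups overlapped. Psmb8, the chymotrypsin-like subunit, had 22.4, 15.0 and 20.5 FPKM in the young controls, 32.8, 24.7 and 34.9 FPKM in the aged controls, and 15.9, 28.7 and 20.7 FPKM in the libraries labelled Thbs1 knockout. Psmb9, the subunit that replaces the caspase-like one, had 20.7, 13.9 and 18.6 FPKM, then 28.9, 23.1 and 26.4 FPKM, then 13.1, 24.02 and 16.9 FPKM. Psmb10, which replaces the trypsin-like subunit, was the most abundant of the 3, with 52.8, 45.9 and 52.9 FPKM, then 70.5, 56.6 and 77.1 FPKM, then 45.4, 62.5 and 60.6 FPKM. For each of the 3 subunits all aged controls lay above all young controls, and the first library labelled Thbs1 knockout lay below all aged controls.

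**Figure D1:**
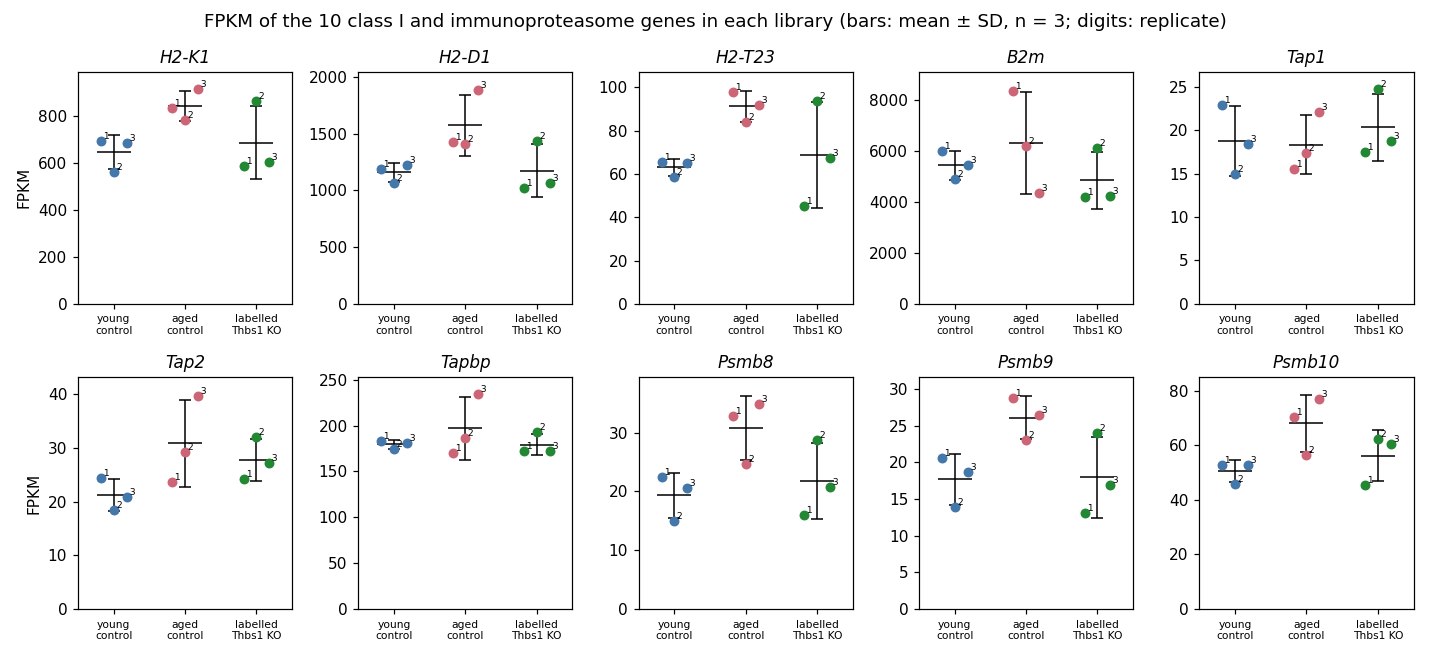
FPKM of each of the 10 genes (vertical axis, starting at 0) in the 9 libraries, by group; points are libraries numbered by replicate, and bars are the mean and SD of 3. The aged controls lie above the young controls without overlap for H2-K1, H2-D1, H2-T23, Psmb8, Psmb9 and Psmb10, and point 2 of the libraries labelled Thbs1 knockout is the highest of its group in all 10 panels.

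When each gene's log2(FPKM + 1) was set relative to its own mean over the 9 libraries, 7, 8 and 9 of the 10 genes lay above their mean in the aged controls, against 3, 0 and 1 in the young controls. In the libraries labelled Thbs1 knockout the numbers were 0, 10 and 2. The average of the 10 centred values was 0.22, 0.10 and 0.35 in the aged controls, −0.01, −0.33 and −0.10 in the young controls, and −0.33, 0.24 and −0.13 in the libraries labelled Thbs1 knockout. The second of those libraries was thus nearer to the aged controls than to the other members of its own group across these genes. Irf1 did not follow this split, since it was above its mean in all 3 libraries labelled Thbs1 knockout, by 0.95, 0.74 and 0.65. The library nearer to the aged controls was also the deepest of the 9, at 30410000 fragments. The other members of its group came next, at 28020000 and 27250000 fragments, with averages of −0.33 and −0.13 over the 10 genes. The aged controls had 22160000 to 24590000 fragments and the young controls 22880000 to 23890000. How depth bears on the class I levels was not tested.

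**Figure D2:**
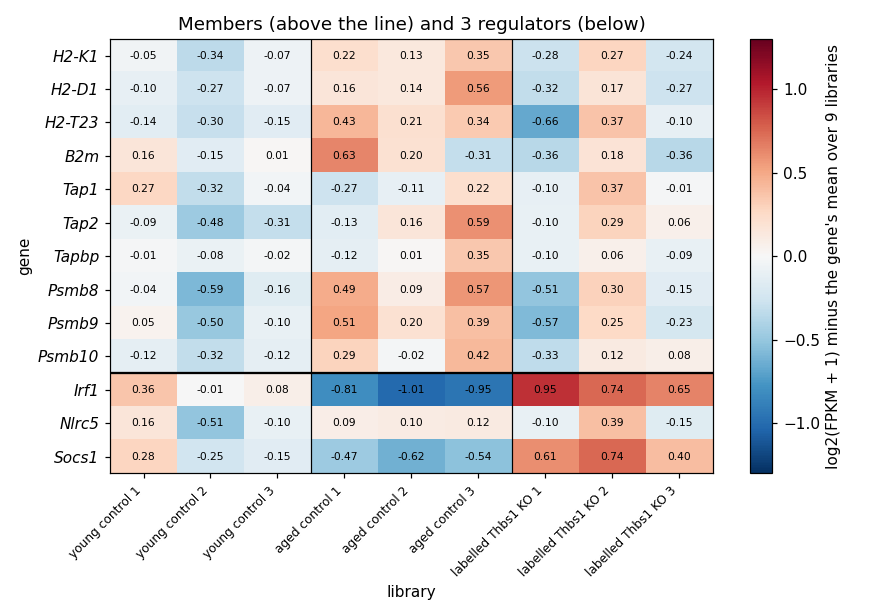
Difference of log2(FPKM + 1) from the gene's own mean over 9 libraries (colour and printed value), for the 10 genes above the line and the regulators Irf1, Nlrc5 and Socs1 below it; columns are libraries. The second library labelled Thbs1 knockout is above the mean for all 10 genes, while Irf1 and Socs1 are below their mean in the 3 aged controls and above it in the 3 libraries labelled Thbs1 knockout.

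The genes lie close together. In GRCm38, 8 of the 10 are on chromosome 17 within the major histocompatibility complex, between 33915899 and 36032855, and the other 2 are B2m (ENSMUSG00000060802, chromosome 2, 122147686 to 122153083) and Psmb10 (ENSMUSG00000031897, chromosome 8, 105935735 to 105938444). Psmb9, Tap1, Psmb8 and Tap2 fill a stretch of 34335 bases, from 34181987 to 34216321, and Psmb9 and Tap1 lie on opposite strands. In RefSeq their starts are at 34187330 and 34187556, with 225 bases between them, while in the GENCODE annotation the exons of the pair overlap by 212 bases. Promoter windows from 250 bases before to 50 after the start were found in RefSeq on GRCm38.p6 for 9 of the 10 genes, all but Tap2. They were searched on both strands for short cores of the elements through which this group of genes is known to be switched on. The interferon-stimulated response element core GAAANNGAA was found for B2m and H2-T23, against 8.56% of 32851 promoter windows in all. The gamma-activated site TTCNNNGAA was found for Psmb8 (8.3% of all windows). An NF-kB core, GGGNNTTCC or GGGNNTTTC, was found for B2m, H2-K1 and H2-D1 (9.53%). The cyclic AMP response element core TGACG was found for 5 of the 9 (20.8% of all windows) and CCAAT for 7 of the 9 (37.4%). A match to such short letters is a description of the sequence and not a binding site.

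The upstream region of B2m is shown because it holds 4 of these cores in a row. It covers chr2:122147437-122147685 on the plus strand, from 250 to 2 bases before the start, and the capitals mark, from left to right, the interferon-stimulated response element core, the NF-kB core on the reverse strand, the TGACG core and CCAAT on the reverse strand.
B2m upstream: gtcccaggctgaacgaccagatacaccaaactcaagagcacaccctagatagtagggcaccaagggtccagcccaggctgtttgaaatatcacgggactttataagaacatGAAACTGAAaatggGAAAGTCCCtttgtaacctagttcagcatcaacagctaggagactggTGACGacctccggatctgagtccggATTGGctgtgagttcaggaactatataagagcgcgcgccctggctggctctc

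H2-K1 and H2-D1, the more abundant of the 3 heavy chains among the 10 genes, share their NF-kB core and its surroundings. The printed stretches of 30 bases, at chr17:34000439-34000468 on the minus strand and chr17:35262913-35262942 on the plus strand, are identical at 29 bases, with the NF-kB core in capitals, and in both promoters TGACG follows 70 bases further on and CCAAT another 25 bases later.
H2-K1: gcccagggctGGGGATTCCccatctccaca
H2-D1: gcccagggctGGGGATTCCccatctcctca
The next sequences show where other members differ: H2-T23 (chr17:36032805-36032834, minus strand) carries the reverse of the interferon-stimulated response element core, and Psmb8 (chr17:34198088-34198117, plus strand) the gamma-activated site, each in capitals.
H2-T23: tcctactgctTTCTCTTTCataaagacaca
Psmb8: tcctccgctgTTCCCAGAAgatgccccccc
Tap1 and Psmb9 read away from each other across one stretch, chr17:34187458-34187487 on the plus strand, whose TGACG (in capitals) lies in the windows of both.
Tap1 and Psmb9: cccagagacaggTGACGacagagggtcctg

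Aged controls were compared with young controls to see what age does to these genes in marrow endothelium. None of the 10 passed the test across all genes, 0 by limma voom as well (limma on log2(FPKM + 1), Benjamini-Hochberg adjusted p from 0.101 to 0.948), although 9 of the 10 differences were positive. The largest was that of Psmb8, at 30.8 ± 5.38 FPKM in the aged controls against 19.3 ± 3.85 FPKM in the young controls (SD, n = 3 each), a ratio of 1.59 and a log2 difference of 0.65 ± 0.219 SE (limma adjusted p = 0.101). Psmb9 differed by 0.55 ± 0.207 (limma adjusted p = 0.13) and Psmb10 by 0.41 ± 0.150 (limma adjusted p = 0.118). Among the heavy chains the log2 differences were 0.53 ± 0.211 for H2-T23, 0.43 ± 0.160 for H2-D1 and 0.39 ± 0.157 for H2-K1, with group means of 91.3 against 63.0, 1572 against 1157 and 846 against 648 FPKM. The transporter chains parted, with 0.50 ± 0.183 for Tap2 and −0.02 ± 0.185 for Tap1, whose 95% interval ran from −0.44 to 0.39. Tapbp differed by 0.12 ± 0.120 and B2m by 0.17 ± 0.234, B2m with an interval from −0.36 to 0.69 that leaves its direction undetermined.

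In this comparison 3.99% of the 11796 genes passed the test, 1.2% of them higher and 2.8% lower, so 0 of 10 is near that background. The same limma fit gave 7 of the 10 genes an unadjusted p under 0.05, all higher, where 10.2% of all genes were higher at that level. The aged and young libraries did not overlap for 6 of the 10, all higher, where 13.9% of all genes did so in that direction. The median difference was 0.42 on the log2 scale, beside −0.05 over all genes tested. The number 7 rested on single libraries: it was 0 without the second young control, 0 without the third aged control and 3 without the first aged control. The median of the 10 was 0.36, 0.32 and 0.43 in those fits. Higher calls over all genes, which unlike the number 7 use the adjusted p, went from 141 to 3, 36 and 89 in the same fits. Quantile normalization lowered the median of the 10 to 0.26, with H2-D1 at 0.055 (limma adjusted p = 0.765) and H2-K1 at 0.19. That normalization gives each rank the same value in every library, so a gene differs only where its rank changes. This limits what it can show for very abundant genes such as H2-D1, ranked 16, and H2-K1, ranked 41. A fit of the 6 control libraries alone called H2-T23 (limma adjusted p = 0.0298), where 2.19% of all genes were called higher.

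The libraries labelled Thbs1 knockout were compared with the aged controls of the same age. None of the 10 passed the test, 0 by limma voom as well (limma adjusted p from 0.145 to 0.72), and 9 of the 10 differences were negative. Psmb9 had the most negative one, −0.55 ± 0.207 SE, from 26.1 ± 2.91 FPKM in the aged controls to 18.0 ± 5.53 FPKM (SD, n = 3 each, limma adjusted p = 0.147). Psmb8 differed by −0.50 ± 0.219 and Psmb10 by −0.28 ± 0.150. The heavy chains differed by −0.46 ± 0.211 for H2-T23, −0.43 ± 0.160 for H2-D1 and −0.32 ± 0.157 for H2-K1, and B2m by −0.35 ± 0.234. Tap2 differed by −0.12 ± 0.183 and Tapbp by −0.12 ± 0.120, and Tap1 by 0.14 ± 0.185 in the other direction. No member's groups were without overlap, where 11.1% of all genes were lower without overlap, and the second library labelled Thbs1 knockout lay within or above the aged range for each of the 10.

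Of all genes tested, 4.79% passed the test in this comparison, 2.78% higher and 2.01% lower, so 0 of 10 is again near the background. The median of the 10 was −0.34 beside 0.00 over all genes, and 3 of the 10 (H2-D1, Psmb8 and Psmb9) had an unadjusted p under 0.05, all lower, where 11.3% of all genes were lower at that level. Both numbers moved with 1 library. Without the second library labelled Thbs1 knockout the median was −0.52 and 4 genes passed the test as lower: H2-T23 at −0.71 (limma adjusted p = 0.0305), Psmb9 at −0.77 (limma adjusted p = 0.0361), H2-K1 at −0.50 (limma adjusted p = 0.0389) and H2-D1 at −0.58 (limma adjusted p = 0.0392), where 4.77% of all genes were then called lower. Without the first such library the median was −0.21, and without the first or the third no gene of the 10 had an unadjusted p under 0.05. Leaving out the first or the third aged control left 1 such gene. Under quantile normalization the median was −0.12, with H2-D1 at −0.13 and H2-K1 at −0.12. The limit of that normalization for very abundant genes applies here as well.

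The same aged controls enter both comparisons, so their values are set side by side and not counted as separate evidence. For Psmb8 the 3 group means were 19.3, 30.8 and 21.8 FPKM in young controls, aged controls and libraries labelled Thbs1 knockout, and for H2-D1 they were 1157, 1572 and 1173 FPKM. Set directly against the young controls, the libraries labelled Thbs1 knockout differed by −0.19 to 0.37 on the log2 scale over the 10 genes, with a median of 0.07 beside −0.03 over all genes. No gene of the 10 passed the test there (limma adjusted p from 0.569 to 1, and 0 by limma voom), where 0.212% of all genes did. None had an unadjusted p under 0.05, where 9.27% of all genes did. The groups overlapped for all 10, where 8.46% of all genes were higher and 14% lower without overlap. The most positive difference was that of Tap2, at 0.37 ± 0.183, and that of H2-D1 was 0.01 ± 0.160 with a 95% interval from −0.35 to 0.36. Intervals of this width do not show that the groups are alike.

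**Figure D3:**
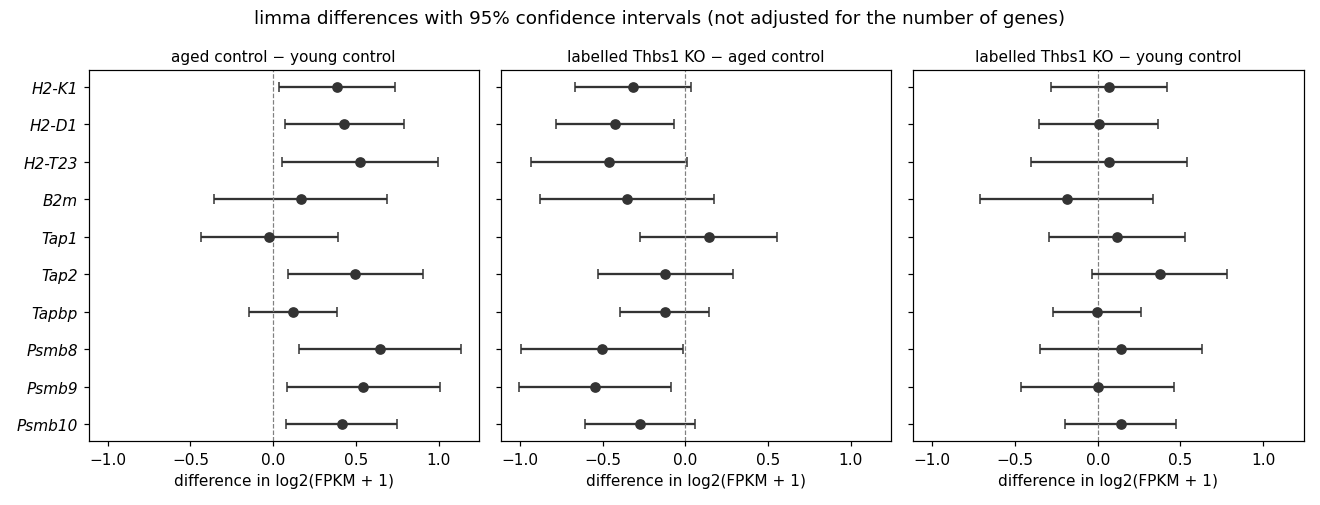
Difference in log2(FPKM + 1) between groups (horizontal axis) with limma's 95% confidence interval, not adjusted for the number of genes, for the 10 genes in 3 comparisons of 3 against 3 libraries. Intervals of 7 genes lie above 0 for aged against young controls, those of 3 lie below 0 for libraries labelled Thbs1 knockout against aged controls, and all 10 cross 0 against young controls.

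The ratio of each immunoproteasome subunit to the standard subunit it replaces was taken within each library, where the scaling between libraries nearly cancels. Printed ratios are of FPKM, while log2 ratios and their tests used FPKM + 1. Psmb8 stood at 0.693, 0.465 and 0.630 of Psmb5 in the young controls, at 0.749, 0.770 and 0.949 in the aged controls, and at 0.442, 0.748 and 0.558 in the libraries labelled Thbs1 knockout. The ratio was higher in all aged controls than in all young controls, by 0.45 on the log2 scale. That is the most separated order that 3 against 3 libraries allow, and its exact two-sided permutation p of 0.1 (0.36 adjusted over 9 tests) is the smallest this design can give. Against the aged controls the libraries labelled Thbs1 knockout were lower by an average log2 ratio of −0.50 with overlap (exact permutation p = 0.2). Psmb9 relative to Psmb6 averaged 0.241 ± 0.0448 in young controls, 0.288 ± 0.0267 in aged controls and 0.240 ± 0.0466 in the libraries labelled Thbs1 knockout (SD, n = 3, exact permutation p = 0.3 for age and 0.2 for the label). Psmb10 relative to Psmb7 averaged 4.93 ± 0.551, 6.13 ± 1.105 and 5.09 ± 0.597 in the same order (SD, n = 3, exact permutation p = 0.2 for both), with overlap. In FPKM, Psmb10 was thus several times the subunit it replaces, while Psmb8 and Psmb9 stayed below theirs in all 9 libraries. FPKM divides by length, and the annotated exon lengths of a pair differ. They are 3381 bases for Psmb8 and 899 for Psmb5, 3660 and 1872 for Psmb9 and Psmb6, and 1705 and 3421 for Psmb10 and Psmb7. Each length joins all annotated exons of a gene, and the transcripts present may hold fewer of them. The FPKM levels therefore do not by themselves rank the subunits of a pair by number of transcripts.

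Psmb9 and Tap1, which share the printed stretch of promoter, did not keep one ratio. Psmb9 stood at 0.900, 0.929 and 1.01 of Tap1 in the young controls, at 1.86, 1.32 and 1.19 in the aged controls, and at 0.749, 0.971 and 0.899 in the libraries labelled Thbs1 knockout. The aged controls were above both other groups without overlap, by log2 ratios of 0.57 over the young controls and −0.69 in the libraries labelled Thbs1 knockout against aged (exact permutation p = 0.1 each, the smallest possible). This ratio was chosen after its values were seen, and both comparisons use the same aged controls. The exons of the pair overlap on opposite strands by 212 bases, 3.87% of the exon bases of Tap1 and 5.79% of those of Psmb9, so a small part of their fragments could be counted for either gene if strand was not used.

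**Figure D4:**
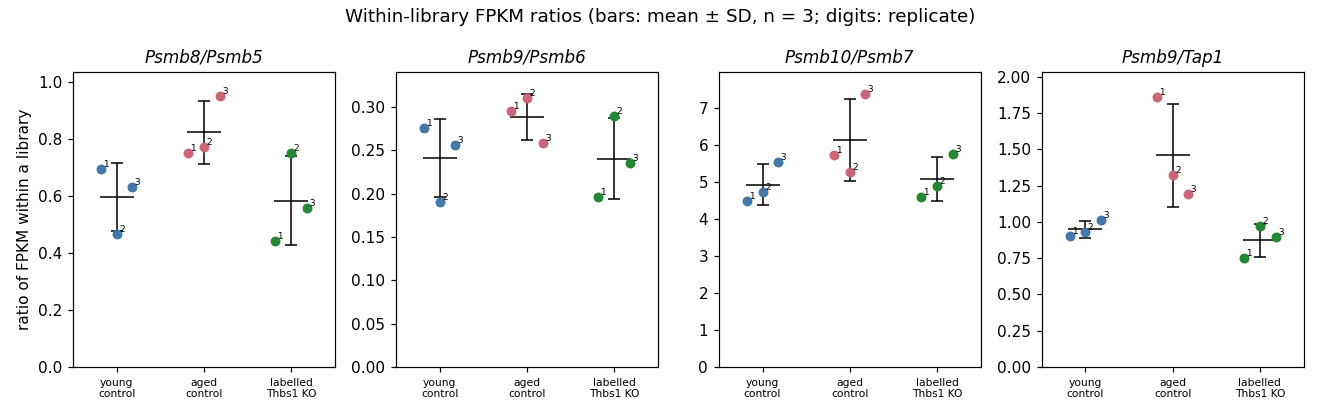
FPKM ratio within each library (vertical axis, starting at 0) of Psmb8 to Psmb5, Psmb9 to Psmb6, Psmb10 to Psmb7 and Psmb9 to Tap1; points are libraries numbered by replicate, bars are the mean and SD of 3. The aged controls are above the young controls without overlap for Psmb8 to Psmb5 (0.749 to 0.949 against 0.465 to 0.693) and for Psmb9 to Tap1 (1.19 to 1.86 against 0.900 to 1.01).

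The rest of the pathway was followed through 77 listed genes, of which 71 were tested. In aged against young controls 1 of the 71 passed the test, lower, and 0 higher, beside 2.8% and 1.2% of all genes. It was Irf1, the interferon regulatory factor that acts on class I and immunoproteasome promoters. Irf1 had 229, 177 and 188 FPKM in the young controls, 101.5, 88.1 and 91.7 FPKM in the aged controls, and 344, 299 and 279.9 FPKM in the libraries labelled Thbs1 knockout. Its 3 groups did not overlap in any pair, and the aged controls were the lowest. Irf1 fell with age by 1.07 ± 0.122 SE on the log2 scale (limma adjusted p = 0.00684). The call was lost without the first young control (limma adjusted p = 0.0521), where lower calls over all genes went from 330 to 5. Over the single libraries left out, the Irf1 difference ran from −1.14 to −0.96. In the libraries labelled Thbs1 knockout Irf1 was 3.28 times the aged level (log2 difference 1.70 ± 0.122, limma adjusted p = 0.000148). Socs1, a feedback inhibitor of interferon signalling, was the other gene that passed in that comparison, 2 of 71 higher beside 2.78% of all genes. Socs1 had 60.8, 41.8 and 44.96 FPKM, then 35.9, 32.1 and 34.1 FPKM, then 76.5, 84.4 and 66.3 FPKM, and rose by 1.13 ± 0.144 over the aged controls (limma adjusted p = 0.00438). In aged against young controls Socs1 differed by −0.50 ± 0.144 (limma adjusted p = 0.073), and no listed gene passed in the libraries labelled Thbs1 knockout against young controls.

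Irf1 and Socs1 had their lowest group mean in the aged controls, where the 3 heavy chains and the 3 immunoproteasome subunits had their highest. The 25 listed regulators, Irf1 and Socs1 included, had a median difference of −0.14 in aged against young controls and 0.12 in libraries labelled Thbs1 knockout against aged. Nlrc5, the class I transactivator, had 3.57, 1.86 and 2.81 FPKM in the young controls, 3.34, 3.39 and 3.43 FPKM in the aged controls, and 2.82, 4.37 and 2.67 FPKM in the libraries labelled Thbs1 knockout, with its highest value in the second of those. Nlrc5 was singled out after its values were seen, and passed neither test (limma adjusted p = 0.415 for age and 0.891 for the label). Jak1, a kinase of the interferon receptors, differed by −0.35 ± 0.115 and 0.16 ± 0.115 (limma adjusted p = 0.0979 and 0.431).

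Of the 11 tested class I chains outside the 10 members, 8 had positive differences with age (median 0.18) and 9 had negative differences in the libraries labelled Thbs1 knockout against aged controls (median −0.26). The most abundant was Fcgrt, the neonatal Fc receptor that protects antibodies and albumin from breakdown and pairs with B2m. Fcgrt had 879, 848 and 828 FPKM in the young controls, 1168, 1096 and 1187 FPKM in the aged controls, and 769, 1006 and 843 FPKM in the libraries labelled Thbs1 knockout. Its aged controls were above all other libraries. Fcgrt differed by 0.43 ± 0.111 with age and by −0.41 ± 0.111 against aged controls, both just short of the threshold (limma adjusted p = 0.059 and 0.0659), and without the second library labelled Thbs1 knockout both passed (limma adjusted p = 0.0222 and 0.0141). Under quantile normalization the 2 differences of Fcgrt were 0.16 and −0.15 (limma adjusted p = 0.28 and 0.334). Fcgrt ranked 29 by mean level, so the limit of that normalization for very abundant genes applies to it too. H2-Q6, a heavy chain of the Qa region, differed by 0.37 ± 0.240 and −0.50 ± 0.240 (limma adjusted p = 0.339 and 0.234), and its call as lower also appeared without that library (−0.79, limma adjusted p = 0.029). With that library left out, 7 listed genes passed in each of the 2 comparisons, against 1 and 2 with it. Of all genes 8.81% and 9.83% then passed, so 7 of 71 is near the background in both. The other leave-outs that moved these numbers were those of the first young control (0 for age), the first and second aged controls (2 each for age, and 4 for the label without the first) and the first library labelled Thbs1 knockout (3 for age).

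None of the listed chaperone, activator and core genes passed the test in any of the 3 comparisons. Calr, the endoplasmic reticulum chaperone calreticulin of the loading complex, averaged 285 ± 58.8, 448 ± 76.5 and 364 ± 73.0 FPKM in the young controls, aged controls and libraries labelled Thbs1 knockout (SD, n = 3). Calr differed by 0.66 ± 0.188 with age (limma adjusted p = 0.0726), which passed only without the second library labelled Thbs1 knockout among the 9 leave-outs (limma adjusted p = 0.0455). Hspa5, the general endoplasmic reticulum chaperone BiP, differed by 0.01 ± 0.205 with age and 0.49 ± 0.205 against aged controls (limma adjusted p = 0.984 and 0.184). Its values turned on single aged controls: without the first it differed by −0.26 with age and passed against aged controls at 0.75 (limma adjusted p = 0.0237), and without the third the differences were 0.24 and 0.25. Psme2 and Psme1 form the PA28 activator that opens the proteasome in cells exposed to interferon. Psme2 averaged 47.9 ± 4.33 FPKM in young and 67.2 ± 10.3 FPKM in aged controls without overlap (SD, n = 3, log2 difference 0.47 ± 0.136, limma adjusted p = 0.0739), and Psme1 differed by 0.18 ± 0.118. Against aged controls both were near 0, at −0.12 ± 0.136 and −0.10 ± 0.118.

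Of the 11 core subunits that the immunoproteasome keeps, 9 had positive differences with age, and 4 were higher without overlap, where 13.9% of all genes were. Against aged controls 9 of the 11 had negative differences and none was without overlap. The standard subunits Psmb5 and Psmb6 differed by 0.19 ± 0.1095 and 0.30 ± 0.129 with age, and the most abundant other core subunits, Psmb2 and Psmb1, by 0.23 ± 0.117 and 0.26 ± 0.107 (limma adjusted p from 0.147 to 0.278 for the 4). The medians of the lists were 0.19 for the 3 standard catalytic subunits and 0.11 for the 11 other core subunits with age, and −0.02 and −0.19 in the libraries labelled Thbs1 knockout against aged controls, beside 0.42 and −0.34 for the 10 members.

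**Figure D5:**
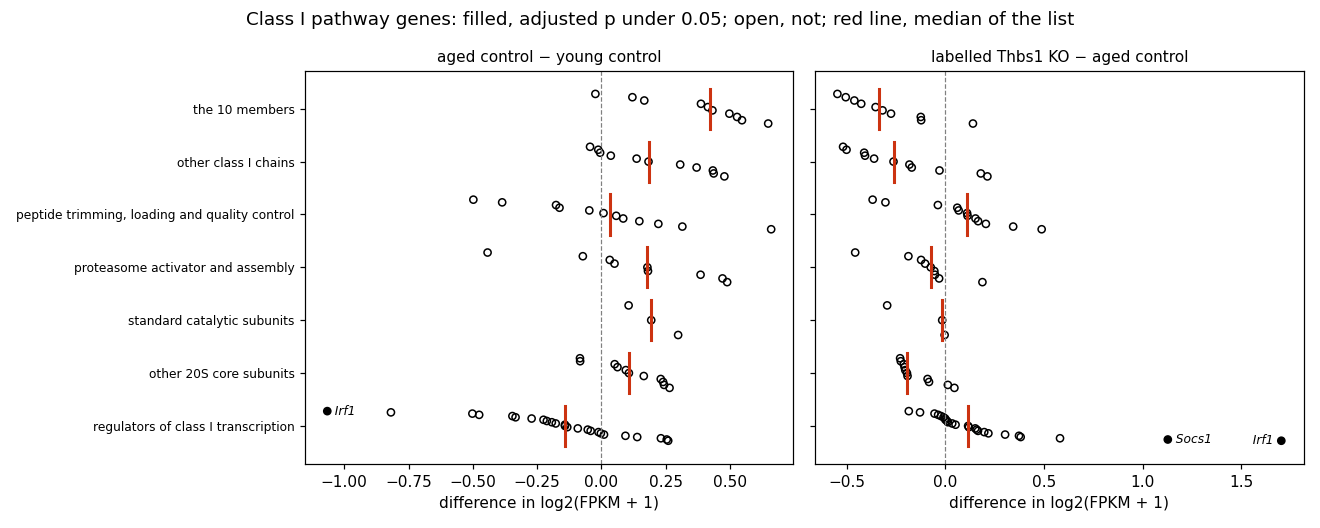
Difference in log2(FPKM + 1) (horizontal axis) of each tested gene of the 10 members and of 6 lists of other pathway genes, for aged against young controls and for libraries labelled Thbs1 knockout against aged controls; red lines are medians, and filled points passed the test. The filled points are Irf1 (−1.07) on the left, and Irf1 (1.70) and Socs1 (1.13) on the right.

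For B2m, Tap1 and Psmb8 the 3 tested genes with the most similar profile over the 9 libraries were found, by the root mean square difference of centred log2 values. Predicted genes, pseudogenes, small RNAs and antigen receptor genes were left out by patterns in their names. The patterns also left out some other genes, among them all whose symbols begin with Rn. Nearest to Psmb8, whose own values had a root mean square of 0.383 around their mean, were Psmb9 at 0.0942, the lipoxygenase gene Alox12 at 0.118 and the carbonyl reductase gene Cbr3 at 0.124. A second immunoproteasome subunit was thus the closest of the tested genes that were kept for this search. Alox12 averaged 27.2, 40.2 and 27.3 FPKM and Cbr3 9.35, 15.9 and 9.55 FPKM in young controls, aged controls and libraries labelled Thbs1 knockout. Nearest to B2m (own root mean square 0.311) were the zinc finger gene Zfp938 at 0.0969, the serglycin gene Srgn at 0.106 and Pecr, a peroxisomal reductase gene, at 0.120, of which Zfp938 and Pecr averaged under 3 FPKM. Nearest to Tap1 (own root mean square 0.225) were Cdkn2d at 0.111, Qars at 0.113 and Irf9, a subunit of the interferon-activated factor ISGF3, at 0.128. No other member came among the 3 nearest of B2m or Tap1.

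Several of these values depend on how fragments were shared out between similar or overlapping genes, which is not given in the sources used here. Of windows of 50 bases along the transcripts, 9.63% for H2-K1, 12.8% for H2-D1 and 14.5% for H2-T23 also occur in transcripts of other genes. Those genes number 25, 168 and 175 in that order, and the error this leaves in the levels was not measured. Class I genes also differ in sequence between mouse strains, and the strain is not named. Exons of other genes overlap 29.0% of the exon bases of Tapbp, 18.5% of those of Tap2 and 14.7% of those of Psmb8. B2m and Psmb10 share no such window and no exon with another gene.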

How the data were processed

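RNA of marrow endothelial cells from 9 libraries in 3 groups of 3 was analysed. Per the labels' protocols, RNA of sorted cells was made into libraries with the SMART-Seq v4 low-input kit. The values the authors deposited are FPKM of 52183 genes. The submitters' processing notes name STAR, edgeR and FastQC 0.11.5, and the builds GRCm38 and mm10, with no roles. The strand setting is not given in the sources used here, nor are the counting rules. Coordinates and exon lengths are those of GENCODE M21 on GRCm38, which held every gene identifier. Depth was recovered from low FPKM values, 99.5% to 99.8% of which were whole multiples of 1 fragment within 0.1.

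All 9 libraries entered 1 fit of log2(FPKM + 1) (R 4.3.3, limma 3.58.1, eBayes with trend, 6 residual degrees of freedom). It covered the 11796 genes whose mean reached 1 FPKM, with Benjamini-Hochberg adjustment over them and a threshold of 0.05. Differences on this scale understate changes of low genes. Log2 ratios of FPKM + 1 were tested by exact two-sided permutation (scipy 1.17.1). The scripts were tested on simulated data. Named were the 10 members, Thbs1, listed genes that passed a test, the 2 most abundant of each list, and the 3 nearest profiles of B2m, Tap1 and Psmb8. Values of 1 listed regulator are not reported here. Members and lists were chosen with earlier results of these data known. Alternatives were other pseudocounts (0.1 and 5), no filter or one of 5 FPKM, median-ratio scaling, quantile normalization, fits of compared groups alone, a replicate block, each library left out and, added after seeing the data, limma voom on recovered fragments.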

Additional observations from a re-analysis of the deposited data

How the results depend on the processing

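Over the other settings tried, the 10 members stayed without a call in each of the 3 comparisons, except that the fit of the 2 compared groups alone called 1 (H2-T23, aged against young). Leaving out single libraries gave 0 members called for age, 0 to 4 for the libraries labelled Thbs1 knockout against aged controls, and 0 against young controls. The number of listed pathway genes called with age, 1 as reported, was 3 with a mean of at least 5 FPKM, 2 with median-ratio scaling, 3 in the fit of the 2 groups alone and 3 with limma voom, which was chosen after seeing the data. The genes these settings added were Fcgrt (higher) in each and Jak2 (lower) in all but median-ratio scaling. Over single libraries left out the number ran from 0 to 7, and for labelled Thbs1 knockout against aged controls from 2 to 7. Signs turned for values near 0, and the cause was not tested. Tap1 with age was 0.026 under median-ratio scaling. Against young controls, Psmb9 was 0.0024 with a pseudocount of 5, 0.037 with median-ratio scaling and 0.0012 with limma voom, Tapbp was 0.036 with median-ratio scaling, and H2-D1 was −0.074 with quantile normalization. The same normalization turned Hspa5 with age to −0.059 and Psmb5 against aged controls to 0.021, and set each difference of B2m to 0. B2m ranked 2 by mean level, and that normalization gives each rank the same value in every library. With single libraries left out, differences with age ran from −0.062 to 0.41 for B2m, −0.17 to 0.12 for Tap1 and −0.013 to 0.22 for Tapbp. Against aged controls they ran from −0.0027 to 0.28 for Tap1, −0.29 to 0.069 for Tap2 and −0.22 to 0.0089 for Tapbp. Against young controls they ran from −0.11 to 0.17 for H2-K1, −0.15 to 0.097 for H2-D1, −0.19 to 0.33 for H2-T23, −0.029 to 0.26 for Tap1, −0.057 to 0.023 for Tapbp, −0.067 to 0.34 for Psmb8 and −0.22 to 0.19 for Psmb9. The log2 ratios there ran from −0.23 to 0.13 for Psmb8 to Psmb5, −0.16 to 0.12 for Psmb9 to Psmb6 and −0.040 to 0.13 for Psmb10 to Psmb7.

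Replicate numbers are shared between groups. Deviations from the group means had r from −0.13 to 0.12 between same-numbered libraries (1 of 9 pairs over 0.1). Between different-numbered libraries r ran from −0.21 to 0.17 (3 of 18 pairs over 0.1). With 3 libraries per group such values cannot decide whether a number marks a shared preparation, which the labels do not state. With the replicate block, 0 members were called in each comparison, and all-gene calls went from 141 higher and 330 lower to 52 and 131 with age and from 328 and 237 to 244 and 156 for the label against aged controls. Aged against young controls had 215 higher and 200 lower calls under median-ratio scaling, 160 and 199 under quantile normalization, 6 and 33 without a filter, 258 and 458 in the fit of 2 groups, 153 and 442 with limma voom and 366 and 673 without the second library labelled Thbs1 knockout. No scaling moved the median of all genes by over 0.1. Each member had at least 1162 fragments in each library.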

Other observations

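A few listed genes outside the naming rule had group orders of their own, and were chosen after their values were seen. Erap1, the aminopeptidase that trims peptides for class I, averaged 17.7 ± 0.443 FPKM in young controls, 12.4 ± 2.65 FPKM in aged controls and 15.9 ± 1.87 FPKM in libraries labelled Thbs1 knockout (SD, n = 3). Its aged controls lay below both other groups without overlap, the opposite order to the heavy chains, but it passed no test (limma adjusted p = 0.0778 for age and 0.192 for the label). Jak2, a kinase of the interferon gamma receptor, averaged 36.5 ± 3.52, 20.6 ± 4.91 and 31.5 ± 8.78 FPKM in the same order (limma adjusted p = 0.055 and 0.122). H2-M3, a nonclassical heavy chain that presents formylated peptides, averaged 33.9 ± 0.586, 46.5 ± 6.41 and 36.2 ± 6.94 FPKM (limma adjusted p = 0.0938 and 0.159), the order of the classical heavy chains.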
